A study of Mus musculus with 21 samples.

Results

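DC2 is the last numbered population of dermal condensate (DC) cells in a single-well RNA table from back skin of CD1 mouse embryos at embryonic day E15.0. Its members are the wells whose names begin with DC2, after wells with fewer than 1000 unique molecular identifiers (UMIs, random tags that mark single RNA molecules) outside the spike-in rows were dropped. Of 151 wells so named, 106 were kept, against 1667 of all 1823 wells named for cells. The populations set beside them were DC1 (147 of 152 wells kept), DC0 (130 of 149) and Fb, fibroblast (1284 of 1371), all from the same strain, age and tissue. No group was treated and the labels list no genotype beyond the strain, although the table holds a row named eGFP, a fluorescent reporter. The series set out to follow how fibroblasts become condensate cells, with live cells sorted by flow cytometry into plates. SORT-seq, the method used, is CEL-Seq2 run by robots, and its UMIs come from the 3′ ends of transcripts. Each of the 9 single-cell libraries is 1 plate or part of one, and 12 bulk samples were not analysed here.

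A dermal condensate is a tight cluster of mesenchymal cells that forms under the epidermal placode, sends signals for the growth of a hair follicle and later becomes the dermal papilla. Sox2, Sox18 and Bmp4 are textbook condensate genes in mouse skin, and condensate cells are known to leave the cell cycle. Signals between neighbouring cells in such clusters include the Notch pathway, in which a ligand such as Dll1 activates a receptor on the next cell and the Hey and Hes repressors are transcribed there.

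The number in a population's name was taken as its stage. The labels do not define DC0 and do not say whether a well's prefix came from the sort or from a grouping of its RNA. The series text says that clusters made with the StemID algorithm were used to find stages. If the prefixes come from such clusters, every difference below was in part used to name the wells. If the prefixes come from a sort on a reporter or another marker, the difference in that marker was set by the sort. Before the limit on depth, named wells went down to 164 UMIs in DC2, 34 in DC0 and 25 in Fb. In library 8 the position numbers of the DC2 wells all followed those of the DC0 wells. Separate animals are not stated for the libraries in the labels, and the spread that p-values measure here is the one between libraries, which may be technical.

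DC2 wells were spread very unevenly over the libraries. Library 8 held 80 of the 106 kept wells, and libraries 2 to 7 held 3, 5, 6, 5, 2 and 4. Library 1 had 1 kept DC2 well, with 1046 UMIs and none from any of the 6 given markers, and it entered no sum. Kept DC2 wells had between 1014 and 72192 UMIs, with a median of 12269.5. The 3 wells just above the limit had 1014, 1046 and 1058 UMIs and the 3 just below had 978, 952 and 886. UMIs were summed over the DC2 wells of a library, which gave 7 sums of 10736 (library 6) to 1337184 UMIs (library 8). In library 6 a single UMI amounted to 93.1 CPM (UMIs scaled to a total of 1000000 per sum), in library 2 to 62.5 CPM and in library 8 to 0.748 CPM, so the low values of the small libraries are coarse. Cells were sorted into separate wells, and no doublet caller was run. The table names wells by library and position and gives no cell barcodes.

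Below, a level is in CPM and 3 values in a row are the lowest, the median and the highest of the libraries (7 for DC2, 8 for DC1, 8 for DC0, 7 for Fb). A fold change is log2 of DC2 over the other population from edgeR, with all 4 populations of libraries 1 to 8 in the same model and the library as a block. An adjusted p under 0.05 over the 2140 genes tested counts as a call. The DC1 wells of library 9 are in the levels and in no fit, since that library holds no other population of cells.

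The 6 given markers were present in the DC2 sums, and their joint level was 1997 to 4837 CPM in DC2, against 387 to 1690 CPM in DC1, 96.6 to 625 CPM in DC0 and 51.1 to 85.8 CPM in Fb. Fibroblast genes remained detectable in DC2, at 8798 to 19121 CPM for 9 genes, against 46732 to 57833 CPM in Fb. Markers of other cell types summed to less than these fibroblast genes. The 10 endothelial genes had 14.96 to 187 CPM in DC2, with Tie1, Emcn and Erg at 0, against 18.2 to 29.5 CPM in Fb. Pecam1, an endothelial adhesion protein, had 4 UMIs in all DC2 wells together. The 9 epidermal genes ranged from 27.7 to 1025 CPM, 6 neuronal genes from 62.5 to 1289 CPM and 9 pericyte and smooth muscle genes from 93.1 to 500 CPM. Nearly all of the neuronal sum was Stmn2, a microtubule regulator of growing axons, with 1281 UMIs in 76 wells, while Snap25 and Prph were at 0. The part of these other genes in any result below was not tested.

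Sox18, a transcription factor of the SOX family (chr2:181669837-181671640 in GRCm38.p6), had 18.8, 625 and 2094 CPM in DC2, against 36.1, 233 and 845 CPM in DC1, 31.4, 213.6 and 574 CPM in DC0 and 0.332, 1.41 and 10.5 CPM in Fb. The lowest DC2 library, library 5, lay below every DC1 and DC0 library and above all fibroblast sums. Its fold change was 1.34 (SE 0.388, adjusted p = 0.0552) against DC1, which is not a call, 1.69 (SE 0.361, adjusted p = 0.0012) against DC0 and 7.81 (SE 0.414, adjusted p = 9.87e-16) against Fb. Cxcr4, the receptor of the chemokine Cxcl12 (chr1:128588199-128592299), had 265, 329.7 and 838 CPM in DC2, 61.4, 135 and 398 CPM in DC1, 0, 0 and 57.4 CPM in DC0 and 1.27, 2.53 and 8.03 CPM in Fb. DC2 lay above every DC0 and Fb library and overlapped DC1. The fold change of Cxcr4 was 1.30 (SE 0.403, adjusted p = 0.082) against DC1, again no call, and 3.96 (SE 0.447, adjusted p = 1.11e-07) against DC0.

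Inhba, the βA subunit of activin (chr13:16004256-16031609), rose against all 3 other populations. It had 187, 528 and 652 CPM in DC2, against 19.5, 154.8 and 244.6 CPM in DC1, 0, 26.5 and 41.0 CPM in DC0 and 21.1, 30.5 and 45.2 CPM in Fb. DC0 and Fb did not overlap DC2, and the DC1 range reached above libraries 2 and 4 of DC2. The fold changes were 2.00 (SE 0.328, adjusted p = 4.01e-04), 4.55 (SE 0.372, adjusted p = 1.47e-10) and 3.83 (SE 0.278, adjusted p = 7.15e-13) against DC1, DC0 and Fb. The DC0 range of Inhba reached down to 0 and overlapped the range of fibroblasts.

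Tspan7, a tetraspanin of the cell membrane (chrX:10485116-10596604), showed the largest rise against DC1 of the genes named by rule. Its CPM in DC2 libraries 2 to 8 was 375, 589, 419, 565, 838, 559 and 496, against 160.4, 0, 38.7, 19.5, 24.1, 73.4, 184 and 162 in DC1 libraries 1 to 7 and 9. No DC1 library reached the lowest DC2 library. The fold change was 2.96 (SE 0.361, adjusted p = 3.06e-06) against DC1, 4.68 (SE 0.365, adjusted p = 6.55e-11) against DC0 and 4.92 (SE 0.288, adjusted p = 7.05e-15) against Fb, with DC2 higher in every library that held both populations.

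The Notch response genes Heyl (chr4:123233556-123249870) and Hey1 (chr3:8663359-8667038) also set DC2 apart. Hey1 had 249.95, 162, 272, 264, 186, 339.6 and 193 CPM in DC2 libraries 2 to 8, against 16.0, 99.4, 38.7, 38.9, 12.03, 79.5, 61.4 and 81.6 CPM in DC1 libraries 1 to 7 and 9. The groups did not overlap, and the fold change was 2.40 (SE 0.398, adjusted p = 4.01e-04) against DC1, 2.83 (SE 0.356, adjusted p = 7.84e-07) against DC0 and 4.80 (SE 0.326, adjusted p = 1.47e-13) against Fb. Heyl had 292, 388 and 1047 CPM in DC2, 0, 129.5 and 289 CPM in DC1 and 0, 54.6 and 322.8 CPM in DC0. Its change against DC1 was 1.94 (SE 0.491, adjusted p = 0.0277), a call that ended without library 3, 4, 6 or 7 (adjusted p = 0.0599 to 0.121). Against DC0 the change of Heyl was 2.31 (SE 0.446, adjusted p = 3.78e-04).

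**Figure D1:**
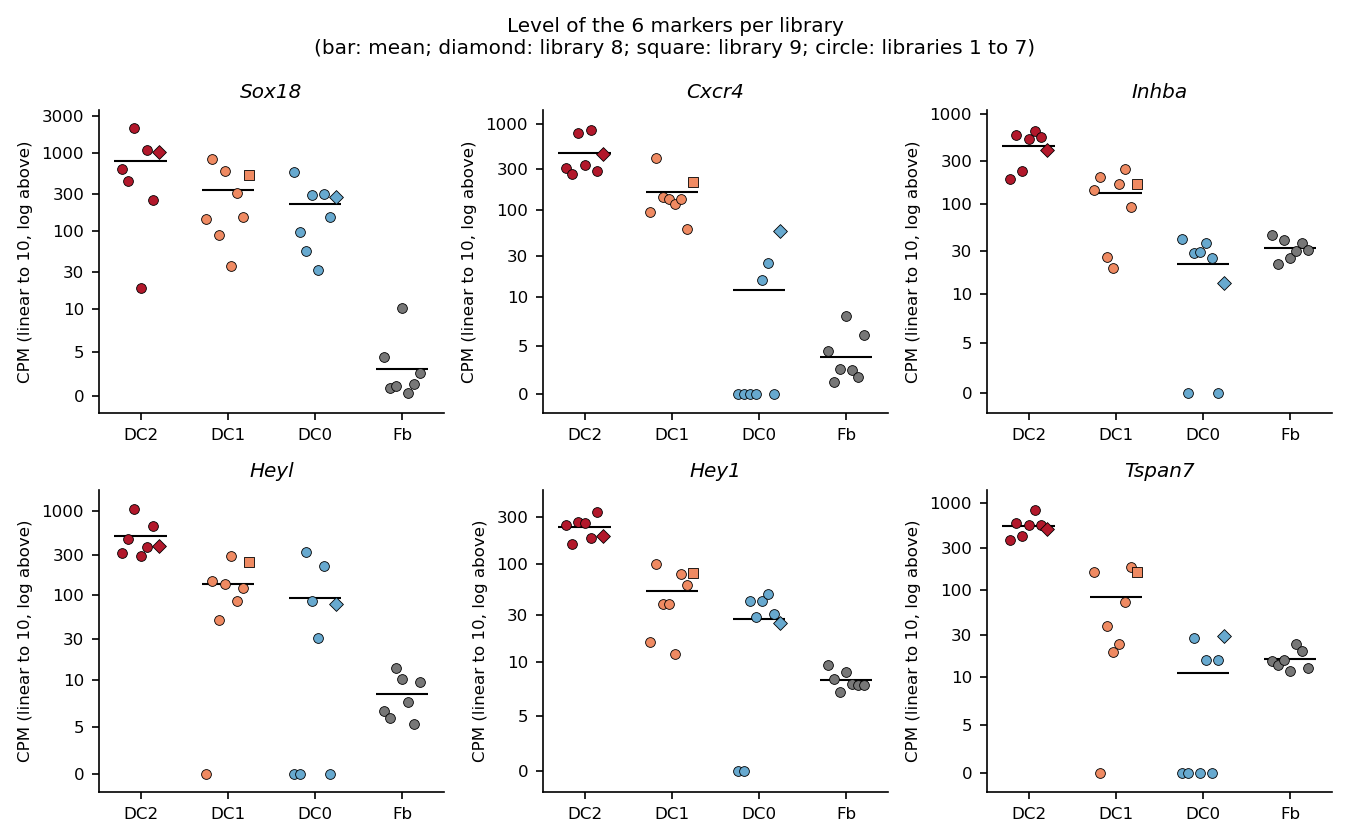
Level of the 6 given markers (CPM, linear to 10 and logarithmic above) in each library of DC2, DC1, DC0 and Fb; bars are means, diamonds library 8 and squares library 9. DC2 lies above every DC1 library for Hey1, Heyl and Tspan7, and the Fb libraries stay at or under 45.2 CPM for all 6 genes.

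Most DC2 wells held several of the markers at once. To compare wells of unequal depth, each well with at least 3000 UMIs was thinned to 3000, which kept 87 DC2, 115 DC0 and 1155 Fb wells and all but 8 of the 147 DC1 wells. At least 3 of the 6 markers had a UMI in 54 of 65 DC2 wells of library 8 (83.1%) and in 17 of 22 DC2 wells of the other libraries (77.3%), against 59 DC1 wells (42.4%), 3 of 115 DC0 wells (2.61%) and 0 of 1155 Fb wells. No thinned DC2 well lacked all 6 markers, against 11 DC1 wells, 51 DC0 wells and 953 Fb wells. The median DC2 well of library 8 had 4 of the 6, and 4 of its 65 wells had all 6.

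Marker by marker, a UMI of Sox18 was found in 56 of 65 (86.2%, interval 75.3 to 93.5) thinned DC2 wells of library 8, against 37.2% of DC0 wells of the same plate and 1.13% of Fb wells. Intervals here are exact binomial at 95% and cover counting error only, since wells of a plate are not replicates. Tspan7 had a UMI in 51 of 65 (78.5%, interval 66.5 to 87.7), Cxcr4 in 43 of 65 (66.2%, interval 53.4 to 77.4) and Heyl in 39 of 65 (interval 47.1 to 72.0%) of these DC2 wells. Inhba was found in 33 of 65 (50.8%, interval 38.1 to 63.4) and Hey1 in 26 of 65 (40.0%, interval 28.04 to 52.9). The DC0 wells of library 8 had shares of 7.45% for Tspan7, 14.9% for Cxcr4, 12.8% for Heyl, 1.06% for Inhba and 3.19% for Hey1. The share of Fb wells was 9.18% for Inhba, which Fb sums held at 21.1 to 45.2 CPM, and between 1.04% and 2.77% for Cxcr4, Heyl, Hey1 and Tspan7. Without thinning, the shares of the 80 kept DC2 wells of library 8 were 83.8% for Sox18, 81.2% for Tspan7 and 58.8% for Hey1.

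Against DC1, the population numbered just before it, DC2 had 29 higher genes (1.36% of those tested) and 30 lower genes (1.4%). At an unadjusted p under 0.05 there were 364 genes. With DESeq2's size factors in edgeR (RLE) the counts were 33 higher and 19 lower, so the split between the directions depends on the scaling. With library 8 left out, 25 were higher and 13 lower. Leaving out any other single library gave 12 to 29 higher and 11 to 31 lower genes, both lowest without library 4. Within the run shared by libraries 3, 5, 6 and 7, 11 genes were higher and 5 lower, and in the other libraries none was called by edgeR, with 108 of 1260 at an unadjusted p under 0.05. Of those other libraries only 2 and 4 held both populations in sums, with 3 and 6 DC2 wells and 4 DC1 wells each.

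The largest rises against DC1, beside Tspan7, Hey1 and Heyl, were those of Unc5b, Lrrc15, Hist1h1c, Sobp and Dll1, the last of which stands with the Notch genes below. Unc5b, a netrin receptor of axon and vessel guidance, had 125, 264 and 439.8 CPM in DC2, against 0, 48.9 and 115 CPM in DC1, with no overlap and a fold change of 2.48 (SE 0.395, adjusted p = 3.20e-04). Lrrc15, a leucine-rich repeat membrane protein, had 113.04, 437 and 607 CPM in DC2, against 0, 64.4 and 298.2 CPM in DC1, 0, 0 and 8.19 CPM in DC0 and 1.74, 3.42 and 3.87 CPM in Fb. DC2 and DC1 overlapped, through DC1 of libraries 2 and 7, and the fold change of Lrrc15 was 2.33 (SE 0.459, adjusted p = 0.00339). Sobp had 125, 196.4 and 427 CPM in DC2 and 12.9, 62.7 and 153.4 CPM in DC1, a change of 2.01 (SE 0.438, adjusted p = 0.0095) that was not called without library 4 (adjusted p = 0.0625). The change of Hist1h1c, a linker histone, was 2.03 (SE 0.563, adjusted p = 0.0466) and ended without library 2, 4, 5, 6, 7 or 8 (adjusted p = 0.0613 to 0.165). In DC2 Hist1h1c had 59.8, 236 and 537 CPM, and the range of DC0, at 30.8, 178 and 656 CPM, overlapped it.

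The genes that fell against DC1 include Twist2 and Crabp1, which fell more against DC0 than against Fb, and a cyclin. Twist2, a transcription factor of early dermis (chr1:91801461-91848034), had 499.9, 606, 209, 357.9, 279.4, 373 and 542 CPM in DC2 libraries 2 to 8, against 1155, 1292, 1821, 1110.1, 1539, 1333, 1074 and 1076 CPM in DC1 libraries 1 to 7 and 9. No DC1 library was as low as the highest DC2 library, and the fold change was -1.77 (SE 0.208, adjusted p = 2.48e-06). Crabp1, a cytosolic binding protein for retinoic acid (chr9:54764748-54773110), had 186, 283 and 632 CPM in DC2 and 298.2, 1117 and 4669 CPM in DC1. It was lower in DC2 in 6 of 6 libraries, with a fold change of -1.99 (SE 0.438, adjusted p = 0.0102), and its call ended without library 3 or 5 (adjusted p = 0.0517 to 0.0769).

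Ccnd1, the D-type cyclin that drives entry into the cell cycle (chr7:144929931-144939831), had 93.1, 219.1 and 628 CPM in DC2, against 413, 726 and 1266 CPM in DC1, and fell by 1.48 on the log2 scale (SE 0.275, adjusted p = 0.00176). The ranges overlapped through library 4 of DC2. Cyp26b1, the enzyme that breaks down retinoic acid, had 125.6, 279.4 and 581 CPM in DC2 and 545, 602 and 1305 CPM in DC1, with a fold change of -1.22 (SE 0.278, adjusted p = 0.0126) that was not called without library 3 or 4 (adjusted p = 0.0505 to 0.0856). Vdr, the vitamin D receptor, was at 0 in 4 DC2 libraries and had 36 UMIs in all DC2 sums, at 0, 0 and 41.9 CPM, against 16.0, 169.7 and 248 CPM in DC1. Its fold change of -3.20 (SE 0.856, adjusted p = 0.0412) rests on these few UMIs and ended without library 3, 4, 5, 6, 7 or 8 (adjusted p = 0.0557 to 0.163). Mtus1 and Ahcy, an enzyme of the methionine cycle, changed by -1.26 and -1.07, with calls that ended without any 1 of 6 libraries for Mtus1 (adjusted p = 0.0625 to 0.118) and of 5 for Ahcy (adjusted p = 0.0694 to 0.115).

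**Figure D2:**
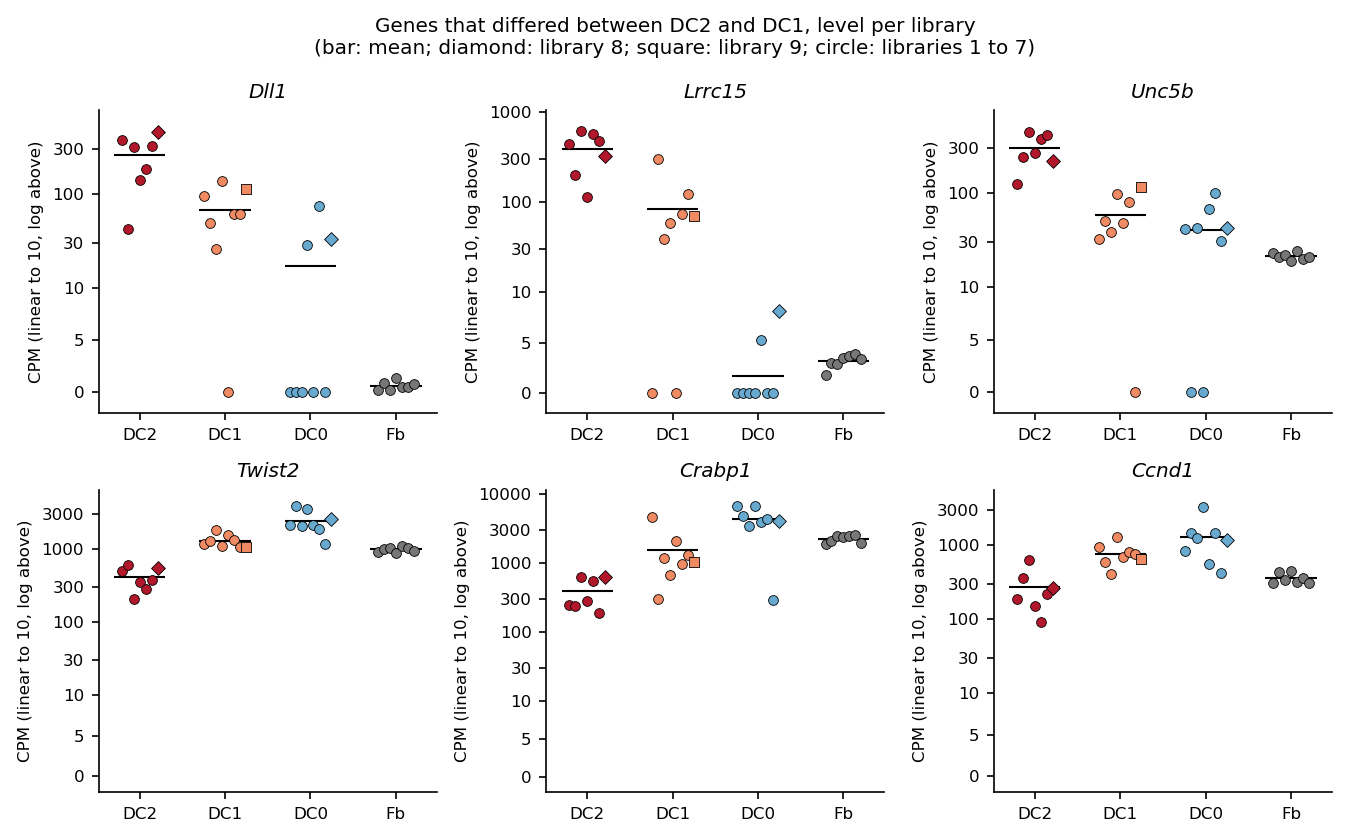
Level (CPM, linear to 10 and logarithmic above) of 3 genes that were higher and 3 that were lower in DC2 than in DC1, per library; bars are means, diamonds library 8 and squares library 9. Dll1, Lrrc15 and Unc5b average 264, 387 and 295 CPM in DC2, and Twist2 lies between 209 and 606 CPM in DC2 with every DC1, DC0 and Fb library above.

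Against DC0, 8.27% of the 2140 genes tested were higher (177 genes) and 9.53% were lower in DC2, and 665 genes had an unadjusted p under 0.05. Without library 8 these shares were 5.75% and 5.11% of 2017 genes. Libraries 3, 5, 6 and 7, which share a sequencing run, gave 85 higher and 65 lower genes alone, and the other libraries gave 54 and 23. By rule, the largest rises were those of Lrrc15, Tspan7, Adamts15, Inhba, Dll1, Cxcr4, Sobp and Apod. Adamts15, a secreted protease that cuts matrix proteoglycans (chr9:30899155-30922452), had 285, 401 and 471 CPM in DC2, against 0, 0 and 25.9 CPM in DC0 and 49.7, 115.8 and 276.1 CPM in DC1. The DC0 range lay under the DC2 range, and the fold change against DC0 was 4.59 (SE 0.446, adjusted p = 4.97e-09). Against DC1 it was 1.46 (SE 0.381, adjusted p = 0.0329), a call that ended without library 2, 3, 4, 5 or 6 (adjusted p = 0.0556 to 0.125). Lrrc15 was at 0 in 6 of 8 DC0 libraries, with 13 UMIs in all, and its fitted change was 5.71 (SE 0.555, adjusted p = 4.97e-09). Apod, a lipid-binding apolipoprotein, had 93.1, 230.3 and 357.9 CPM in DC2 and 0, 17.9 and 108 CPM in DC0, a change of 3.45 (SE 0.576, adjusted p = 6.32e-05) with DC2 higher in 7 of 7 libraries although the ranges overlapped.

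The largest falls against DC0 were those of Crabp1, Eln, Mcm3, Twist2, Atf3, Ccnd1, Fst and Lum. Twist2 changed by -2.51 (SE 0.195, adjusted p = 6.55e-11), and Ccnd1, at 416, 1210.4 and 3281 CPM in DC0, by -2.06 (SE 0.2498, adjusted p = 3.92e-07). Crabp1 in DC0 had 292.6, 4230.1 and 6879 CPM, and DC2 was lower in all 7 libraries, by 3.35 on the log2 scale (SE 0.401, adjusted p = 3.51e-07). Eln, which encodes elastin, had 0, 21.9 and 65.9 CPM in DC2, against 46.2, 426 and 1025 CPM in DC0, with a change of -3.23 (SE 0.485, adjusted p = 1.33e-05). Lum, the matrix proteoglycan lumican, had 98.6, 186 and 333 CPM in DC2 and 386, 682 and 1092 CPM in DC0 without overlap, a change of -1.87 (SE 0.240, adjusted p = 1.09e-06). Fst, the antagonist of activin, had 0, 62.8 and 249.95 CPM in DC2 and 0, 186 and 799.9 CPM in DC0, with overlap and a change of -1.96 (SE 0.467, adjusted p = 0.00323). Atf3, a stress-induced transcription factor, changed by -2.49 (SE 0.602, adjusted p = 0.00385), and its DC2 level reached 562 CPM in library 2, against 0 to 41.9 CPM in the 6 other DC2 libraries.

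Against Fb, DC2 had 460 higher (21.5%) and 500 lower genes (23.4%). Within the run shared by libraries 3, 5, 6 and 7 there were 365 and 406, and in the other libraries 154 and 152. The rises named by rule were those of Dll1, Pdlim3, Sox18, eGFP, Vat1l, Cxcr4, Lrrc15 and Frzb. The eGFP row had 164, 208 and 373 CPM in DC2, 70.4, 191 and 465 CPM in DC1, 30.8, 205 and 547 CPM in DC0 and 0, 1.76 and 3.04 CPM in Fb. DC2 changed by 7.17 (SE 0.421, adjusted p = 7.18e-15) against Fb, and its change against DC1 was 0.18 (SE 0.383, adjusted p = 0.892), which is no call. If cells were sorted on this reporter, which the labels do not say, the difference from Fb was set in advance. Pdlim3, an actin-associated protein of muscle and mesenchyme, had 62.5, 244.9 and 478 CPM in DC2 and 0.249, 0.704 and 2.096 CPM in Fb, a change of 7.98 (SE 0.504, adjusted p = 3.10e-14). Vat1l had 93.1, 175 and 272 CPM in DC2 and 0, 0.790 and 3.32 CPM in Fb, a change of 6.82 (SE 0.427, adjusted p = 2.79e-14). Neither Pdlim3 nor Vat1l had a call between DC2 and DC1, with fold changes of 0.38 and 0.02.

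The falls against Fb named by rule were those of Cxcl12, Islr, Lox, Thbs2, Aspn, Thbs1, Dpt and Agtr2. Cxcl12, the ligand of Cxcr4, had 5 UMIs in all DC2 sums and was at 0 in 5 of 7 libraries, against 159, 187 and 215 CPM in Fb, a fitted change of -7.01 (SE 0.613, adjusted p = 4.69e-11). Agtr2, an angiotensin receptor of embryonic mesenchyme, had 0, 20.9 and 119.5 CPM in DC2, against 836, 988 and 1403 CPM in Fb, a change of -4.75 (SE 0.418, adjusted p = 5.41e-11). Lox, the enzyme that crosslinks collagen and elastin, had 3 UMIs in DC2, against 117, 154 and 191.9 CPM in Fb, and was called lower (adjusted p = 1.01e-07). Its 7 DC2 libraries were at 0 in 5, at 10.96 CPM in library 7 and at 125 CPM in library 2, where 1 UMI is worth 62.5 CPM. Islr, Aspn, Thbs1 and Thbs2 changed by -6.54, -5.56, -5.56 and -5.77. Dpt, a marker of fascia fibroblasts, had 0, 18.8 and 93.1 CPM in DC2, 441, 562 and 733 CPM in Fb and a change of -5.13 (SE 0.479, adjusted p = 2.20e-10).

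In the Notch pathway, 7 of 22 listed genes passed the filter on low counts and were tested. Of these, 3 rose against DC1, 4 against DC0 and 5 against Fb, and none fell. Over all genes, 1.36%, 8.27% and 21.5% were higher in these comparisons. Hey1 and Heyl, which are given markers, were among the rises in each. A gene could pass the filter through high DC2 sums alone, and such a gene could hardly be called lower in DC2. The counts and medians of this list and of those below are thus partly set by the filter and are a description only. The median fold change of the 7 tested genes was 1.49 against DC1, 2.31 against DC0 and 2.67 against Fb, where the medians of all genes were -0.04, -0.02 and -0.03. Dll1, the ligand (chr17:15367354-15376932), had 375, 42.7, 314.1, 141, 186, 329 and 459 CPM in DC2 libraries 2 to 8, 0, 61.3 and 136 CPM in DC1, 0, 0 and 74.9 CPM in DC0 and 0.169, 0.528 and 1.397 CPM in Fb. Only library 3 of DC2 fell below 100 CPM. Dll1 changed by 1.86 (SE 0.473, adjusted p = 0.0293) against DC1, a call that ended without library 2, 6, 7 or 8 (adjusted p = 0.0592 to 0.0796), by 3.97 (SE 0.472, adjusted p = 3.26e-07) against DC0 and by 8.15 (SE 0.4661, adjusted p = 5.36e-15) against Fb. In thinned wells of library 8, Dll1 had a UMI in 42 of 65 (64.6%, interval 51.8 to 76.1) DC2 wells, against 3.19% of DC0 wells, 21.6% of DC1 wells of all libraries and 0.173% of Fb wells.

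Among the receptors, Notch1 (chr2:26457902-26503822) had 62.5, 188 and 314.1 CPM in DC2, 32.1, 92.5 and 156 CPM in DC1 and 0, 31.1 and 86.4 CPM in DC0. It changed by 1.27 (SE 0.393, adjusted p = 0.082) against DC1, no call, and by 2.47 (SE 0.381, adjusted p = 1.92e-05) against DC0. Notch3 (chr17:32120820-32166896), which pericytes also express, had 0, 153.4 and 375 CPM in DC2 and 28.9, 33.4 and 37.6 CPM in Fb and was called against Fb alone, at 1.94 (SE 0.403, adjusted p = 2.01e-04). The target Hes1 had 131, 188 and 437 CPM in DC2, 0, 94.2 and 351 CPM in DC1 and 101, 121 and 138 CPM in Fb, with no call against any of them, and the same held for Rbpj, the DNA-binding partner of Notch. Within library 8, the Spearman correlation of Heyl and Hey1 over 65 thinned DC2 wells, which share plate and depth, was 0.163.

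The 5 Notch genes called in any comparison were looked up among RefSeq promoter windows of GRCm38.p6, which run from upstream of each start to just after it. Dll1 had a pair of windows, Notch1 and Notch3 1 each, while Hey1 and Heyl had no entry in the table. None of these 4 windows held TGGGAA, the core of the site bound by the Notch partner Rbpj, on either strand, against 25.6% of all 32851 windows. These letters outside the windows were not searched.

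Of 9 tested genes of the activin and TGF-β group, Inhba alone was called against DC1, while 4 rose and 1 fell against DC0 and 6 rose against Fb. Over all genes, 1.36% were higher against DC1, 8.27% were higher and 9.53% lower against DC0, and 21.5% were higher against Fb. The rises against DC0 were those of Inhba, the receptors Tgfbr1 (1.14, SE 0.311, adjusted p = 0.0101) and Tgfbr2 (1.54, SE 0.295, adjusted p = 3.60e-04) and the protease inhibitor Serpine2 (1.73, SE 0.446, adjusted p = 0.00643), and the fall was that of Fst. Tgfbr2 had 125, 186 and 272 CPM in DC2, against 15.4, 71.9 and 143.9 CPM in DC0 and 97.5, 112 and 130.0 CPM in Fb. The call of Tgfbr1 ended without library 5 (adjusted p = 0.0508) and that of Serpine2 without library 8 (adjusted p = 0.0789). The median change of the 9 was 0.14 against DC1, -0.01 against DC0 and 1.29 against Fb.

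Of 10 tested BMP genes 0 were called against DC1, near the overall shares of 1.36% and 1.4%. Against Fb 4 rose and 2 fell, where 21.5% and 23.4% of all genes did. Bmp4, a growth factor made by condensates, had 279.4, 503 and 932 CPM in DC2, 97.4, 516 and 1508 CPM in DC1, 169, 605 and 1410.4 CPM in DC0 and 37.2, 56.2 and 61.1 CPM in Fb. All 3 condensate populations overlapped one another and lay above Fb, with a change of 3.37 (SE 0.374, adjusted p = 8.96e-09) for DC2 over Fb. Bmp7 had 213, 767 and 1211 CPM in DC2 and 23.4, 27.0 and 40.5 CPM in Fb, a change of 4.40 (SE 0.355, adjusted p = 7.80e-12). Smoc1, a matrix protein that modulates BMP signals, rose against DC0 (1.23, SE 0.273, adjusted p = 0.00176) and Fb (4.93, SE 0.287, adjusted p = 7.05e-15). Id2, a transcriptional target of BMP signals, had 0, 10.96 and 312.4 CPM in DC2, against 151, 187 and 273 CPM in Fb, and fell by 3.14 on the log2 scale against Fb (SE 0.528, adjusted p = 1.29e-05). Its call against DC0 ended without library 8 (adjusted p = 0.0745).

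Of 16 tested WNT genes, Rspo3 and Wnt5a rose and Twist2, a target, fell against DC1. Over all genes, 1.36% were higher and 1.4% lower against DC1, 8.27% and 9.53% against DC0, and 21.5% and 23.4% against Fb. Rspo3, a secreted enhancer of WNT signals, had 125, 524 and 844 CPM in DC2, 97.4, 214.4 and 335 CPM in DC1, 0, 104 and 287 CPM in DC0 and 34.3, 43.7 and 56.6 CPM in Fb. The DC2 and DC1 ranges overlapped, and the change was 1.59 (SE 0.363, adjusted p = 0.0126) against DC1 and 2.56 (SE 0.354, adjusted p = 3.69e-06) against DC0. The call against DC1 ended without library 4 or 5 (adjusted p = 0.05 to 0.0683). Wnt5a, a ligand of the branch that does not act through β-catenin, had 0, 313 and 649 CPM in DC2 and 61.4, 167 and 447 CPM in DC1, a change of 1.43 (SE 0.365, adjusted p = 0.0293) that was not called without library 3, 4, 5 or 7 (adjusted p = 0.0669 to 0.16). Against DC0, 5 WNT genes rose, among them the receptor Fzd2 (1.22, SE 0.205, adjusted p = 6.91e-05) and the secreted inhibitors Frzb (2.85, SE 0.422, adjusted p = 1.09e-05) and Sfrp2 (1.86, SE 0.519, adjusted p = 0.0111). The call of Sfrp2 ended without library 5 or 8 (adjusted p = 0.122 to 0.154). Against Fb, 8 rose, among them Lef1, the nuclear partner of β-catenin, at 1.89 (SE 0.288, adjusted p = 2.90e-06), and 2 fell. Lef1 in DC2 had 186, 285 and 544 CPM, against 123.2, 507 and 1641 CPM in DC0, with a change of -0.69 (SE 0.278, adjusted p = 0.0829).

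The FGF list had 6 tested genes and the hedgehog list 7. None was called against DC1, where 1.36% of all genes were higher and 1.4% lower. Fgf10, a ligand that acts on epithelium, had 93.1, 333 and 659 CPM in DC2, 293.5, 415 and 642 CPM in DC1, 317, 394 and 861 CPM in DC0 and 23.1, 38.5 and 55.7 CPM in Fb, a change of 3.24 (SE 0.258, adjusted p = 5.99e-12) against Fb. The receptor Fgfr1 rose against DC0 by 0.71 (SE 0.183, adjusted p = 0.00682), a call that ended without library 7 (adjusted p = 0.0535), and against Fb by 1.13 (SE 0.183, adjusted p = 7.61e-06). Gli1 and Hhip, targets of hedgehog signals, rose against Fb by 2.48 (SE 0.183, adjusted p = 9.68e-13) and 3.32 (SE 0.443, adjusted p = 3.10e-07). The co-receptors Gas1, Cdon and Boc fell against Fb, with Gas1 at 0, 87.6 and 249.95 CPM in DC2 and 648, 712 and 807 CPM in Fb, a change of -3.13 (SE 0.303, adjusted p = 5.09e-10).

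**Figure D3:**
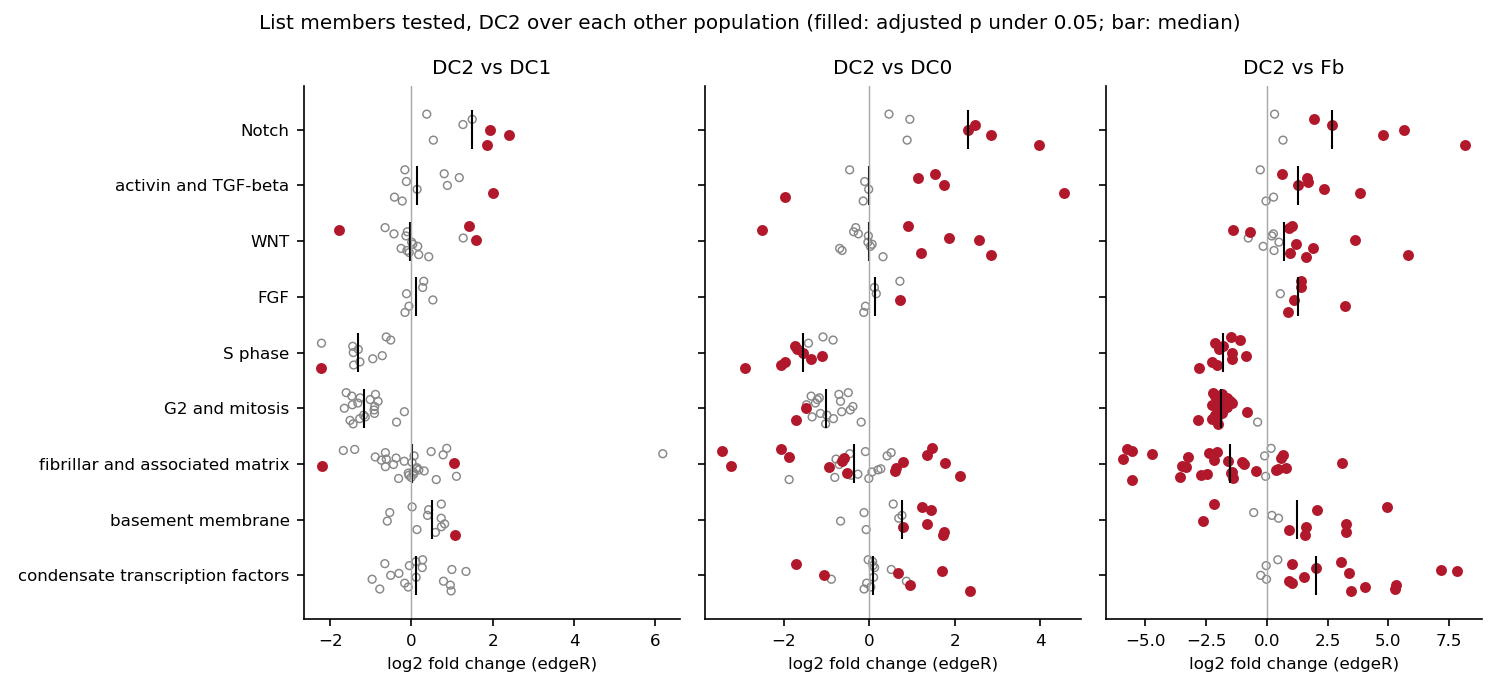
Log2 fold change of DC2 over DC1, DC0 and Fb for each tested member of 9 gene lists; filled points are calls and the vertical bar is the list's median. The Notch medians are 1.49, 2.31 and 2.67 and the S phase medians -1.31, -1.55 and -1.80 against DC1, DC0 and Fb.

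Genes of DNA replication were low in DC2. Of 11 tested S phase genes, 1 fell against DC1 (Mcm3), 8 against DC0 and all 11 against Fb, and none rose. Over all genes, 1.4%, 9.53% and 23.4% were lower in these comparisons. Mcm3, a subunit of the replicative helicase, had 0, 0 and 41.9 CPM in DC2 with 26 UMIs in all, 19.5, 62.8 and 142 CPM in DC1, 48.3, 116.2 and 262 CPM in DC0 and 101, 119 and 130.1 CPM in Fb. It was at 0 in 4 of 7 DC2 libraries, and no DC0 or Fb library was as low as the highest of DC2. The change was -2.22 (SE 0.525, adjusted p = 0.0167) against DC1, not called without library 3 or 6 (adjusted p = 0.088 to 0.0893), and -2.90 (SE 0.425, adjusted p = 9.20e-06) against DC0. Pcna, the clamp that holds DNA polymerase, had 62.8, 186 and 249.95 CPM in DC2 and 484, 566 and 637 CPM in Fb, with changes of -1.31 (SE 0.388, adjusted p = 0.0635) against DC1, -1.69 (SE 0.343, adjusted p = 6.92e-04) against DC0 and -1.98 (SE 0.347, adjusted p = 2.37e-05) against Fb. The DC0 calls of Mcm7 and Nasp ended without library 8, at adjusted p = 0.149 and 0.0517.

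Genes of G2 and mitosis had a median change of -1.18 against DC1, -1.02 against DC0 and -1.88 against Fb. Of 19 tested, none was called against DC1 (1.36% and 1.4% of all genes were), Ccna2 and Hmgb2 fell against DC0, both only with library 8 in the fit (adjusted p = 0.117 and 0.131 without it), and 18 fell against Fb. Over all genes, 9.53% were lower against DC0 and 23.4% against Fb. Mki67, a marker of dividing cells (chr7:135689784-135716450), had 0, 34.2, 20.9, 528, 186, 54.8 and 65.8 CPM in DC2 libraries 2 to 8, against 284, 411 and 502 CPM in Fb, a change of -2.26 (SE 0.643, adjusted p = 0.00486). Library 5 alone of DC2 reached the fibroblast range. Summed over the list, the level in libraries with both populations was 2499 ± 2987 CPM in DC2 and 6006 ± 331 CPM in Fb (SD, n = 6 libraries), lower in DC2 in 5 of 6, with p = 0.0625 in an exact two-sided sign-flip permutation test over libraries that can reach 0.03125. The same exact permutation test gave p = 0.125 against DC1 (2499 ± 2987 and 4095 ± 4503 CPM, n = 6) and p = 0.4375 against DC0 (2407 ± 2737 and 3996 ± 3828 CPM, n = 7).

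Most of the high value of library 5 lay in 1 well, which held 50 of its 56 UMIs of Mki67. Of 87 thinned DC2 wells, 3 (3.45%, exact interval 0.717 to 9.75) had at least 10 of their 3000 UMIs from these genes, against 30 DC1 wells (21.6%), 30 of 115 DC0 wells (26.1%) and 485 of 1155 Fb wells (42.0%). The well of library 5 had 78 such UMIs of 3000 and 5 of the 6 markers. A well of library 8 had 52, with all 6 markers, and the next had 11. The next highest had 9. Within library 8 the shares at 10 UMIs were 2 of 65 DC2 wells (3.08%) and 25 of 94 DC0 wells (26.6%). At a limit of 5 UMIs, chosen after the values were seen, DC2 had 18 of 87 wells (20.7%), made of 9 of 65 in library 8 (13.8%) and 9 of 22 in the other libraries (40.9%), against 41.7% of DC1, 36.5% of DC0 and 60.5% of Fb wells.

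**Figure D4:**
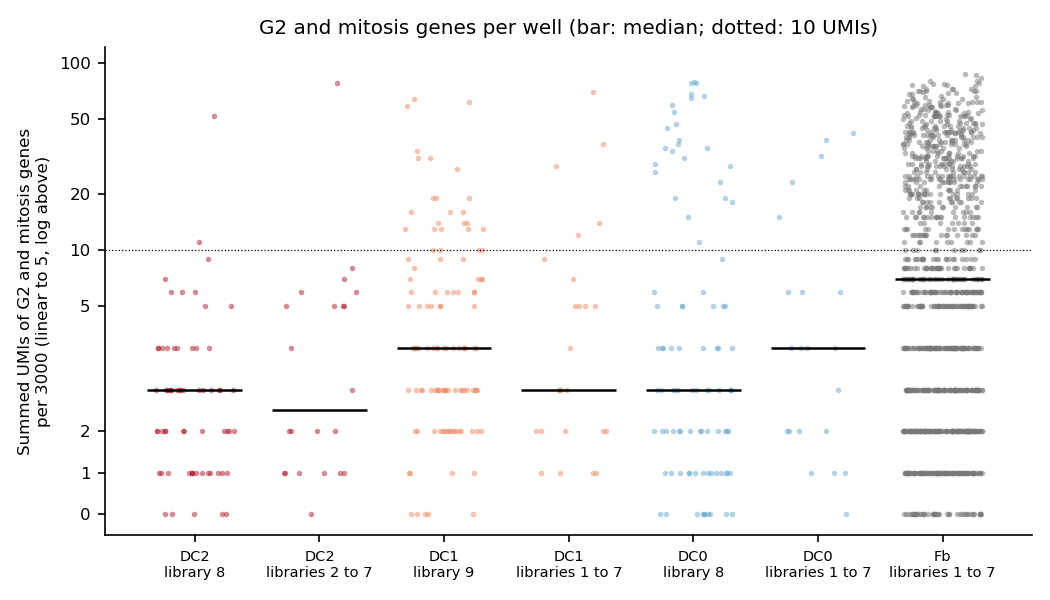
Summed UMIs of G2 and mitosis genes in each well thinned to 3000 UMIs (linear to 5 and logarithmic above) by population and plate; bars are medians and the dotted line marks 10 UMIs. DC2 has 3 of 87 wells at or above the line, against 30 DC1, 30 of 115 DC0 and 485 of 1155 Fb wells.

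Inhibitors of the cell cycle had 7 tested members. None was called against DC1 and none rose against DC0, near the 1.36% and 8.27% of all genes that were higher. In the fit of all libraries 3 fell against DC0, namely Cdkn1a, Cdkn1c and Gadd45g, where 9.53% of all genes were lower. Cdkn1a, which encodes p21, had 0, 367 and 539 CPM in DC2, 195, 493 and 866 CPM in DC1, 46.2, 796 and 2366 CPM in DC0 and 27.6, 50.7 and 73.9 CPM in Fb. It was thus above Fb (2.83, SE 0.451, adjusted p = 5.88e-06) and below DC0 (-1.28, SE 0.433, adjusted p = 0.0381), although the call against DC0 ended without library 2, 3, 4, 5 or 6 (adjusted p = 0.0578 to 0.113). Cdkn1c, which encodes p57 (chr7:143458339-143461059), had 312.4, 652 and 2836 CPM in DC2, 410.1, 5223 and 6265 CPM in DC0 and 1409, 2009.6 and 2743 CPM in Fb, with a change of -2.10 (SE 0.544, adjusted p = 0.00681) against DC0 and none called against Fb. In library 8, the plate with most DC2 wells, the summed level of Cdkn1c was higher in DC2 than in DC0. The log2 ratio of these levels was 0.63, against a fitted change of -2.57 in libraries 1 to 7. In thinned wells of that plate, the mean of Cdkn1c was 5.14 UMIs in DC2 and 5.54 in DC0, and the median 1 and 2. The higher level in DC2 was thus not seen at equal depth. Outside the shared run the fitted fall of Cdkn1c against DC0 was not called (-1.68, adjusted p = 0.361). Against Fb 4 of the 7 rose, namely Cdkn1a, Btg1, Plk2 and Ccng2, and 1 fell, Btg2, where 21.5% and 23.4% of all genes did. The changes of Btg1 and Plk2 were 1.11 (SE 0.185, adjusted p = 1.21e-05) and 3.99 (SE 0.311, adjusted p = 3.62e-12).

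The collagen-rich matrix of fibroblasts was low in DC2. Of 30 tested genes of fibrillar and associated matrix, 21 fell and 6 rose against Fb, where 23.4% and 21.5% of all genes did. Their median change was -1.54. Col1a1, a chain of type I collagen, had 898, 1601 and 2749 CPM in DC2 and 4358, 9380.5 and 11752 CPM in Fb without overlap, a change of -2.71 (SE 0.199, adjusted p = 9.53e-13). Decorin (Dcn) had 251, 405 and 812 CPM in DC2 and 3115, 3925 and 4182 CPM in Fb, a change of -3.33 (SE 0.226, adjusted p = 1.47e-13). The 6 that rose were Col6a1, Col6a2, Col6a3, Loxl2, Fbln2 and Mfap4. The type VI collagen chain Col6a3 had 1956, 3236 and 3758 CPM in DC2 and 1470.5, 1669 and 1733 CPM in Fb, a change of 0.79 (SE 0.151, adjusted p = 8.22e-05). The smaller rises of Col6a1 (0.38, SE 0.135, adjusted p = 0.0231) and Col6a2 (0.47, SE 0.143, adjusted p = 0.0083) changed sign with the filter, at -0.0837 and -0.00198 when no filter on low counts was used, and that of Col6a1 ended without library 2, 3, 4, 7 or 8 (adjusted p = 0.0558 to 0.0895).

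Fbln2, a fibulin that joins elastic fibres and basement membranes, was the matrix gene that rose in DC2 against each of the 3 other populations. It had 1625, 1247, 1152, 1460.0, 2329, 1819 and 1530.1 CPM in DC2 libraries 2 to 8, 417, 747 and 1032 CPM in DC1, 246, 438 and 538 CPM in DC0 and 142, 162 and 182 CPM in Fb. DC2 overlapped no other population, and the changes were 1.05 (SE 0.168, adjusted p = 3.20e-04) against DC1, 1.76 (SE 0.162, adjusted p = 2.34e-09) against DC0 and 3.10 (SE 0.162, adjusted p = 9.87e-16) against Fb. Eln was the 1 matrix gene that fell against DC1, at -2.21 (SE 0.584, adjusted p = 0.0372), a call that ended without library 3, 4, 5, 6 or 8 (adjusted p = 0.0602 to 0.102). Against DC0, 7 of the 30 matrix genes tested rose and 8 fell, where 8.27% and 9.53% of all genes did. Among them the call of Fbn2 ended without library 1, 2, 4, 5 or 8 and that of Loxl2 without library 3, 4, 5, 6 or 8. The call of Fbn1 ended without library 4, 5 or 8, that of Col3a1 without library 8 and that of Col5a2 without library 4. Thbs2 was among the 8 that fell only with libraries 3 and 8 both in the fit: its change of -2.07 (SE 0.719, adjusted p = 0.0421) lost its call without library 3 (adjusted p = 0.084) and turned to 0.91 (adjusted p = 0.539) without library 8.

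Basement membrane genes leaned the other way, with 6 of 12 tested rising against DC0 and 7 against Fb, and medians of 0.51, 0.77 and 1.25 against DC1, DC0 and Fb. Over all genes, 8.27% were higher against DC0 and 21.5% against Fb. Lama2, a laminin chain, had 599, 652 and 692 CPM in DC2, 184, 399.6 and 487 CPM in DC1, 86.4, 209.8 and 475 CPM in DC0 and 54.8, 67.4 and 71.1 CPM in Fb. The DC2 range lay above the others, and the change was 0.82 (SE 0.240, adjusted p = 0.0613) against DC1, no call, and 1.34 (SE 0.227, adjusted p = 7.19e-05) against DC0. Nid1, which links laminin to collagen IV, had 652, 1460.0 and 2136 CPM in DC2 and 338, 550.5 and 615 CPM in DC0, a change of 1.45 (SE 0.209, adjusted p = 6.68e-06). Agrn, a heparan sulfate proteoglycan, was the only member called against DC1, at 1.07 (SE 0.299, adjusted p = 0.0466), and was not called without library 1, 2, 3, 4, 5 or 7 (adjusted p = 0.0506 to 0.176). The calls of Col4a2 and Col15a1 against DC0 ended without library 7 or 8 (adjusted p = 0.0623 to 0.0663) for Col4a2 and without library 2, 4, 5 or 8 (adjusted p = 0.0515 to 0.191) for Col15a1, while Lama4 and Smoc2 fell against Fb.

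Guidance genes moved in both directions. Of 13 tested, Unc5b alone rose against DC1, Unc5b and Nrp2 rose and Sema6d and Efna5 fell against DC0, and 8 rose and 4 fell against Fb, where 21.5% of all genes were higher and 23.4% lower. The shares over all genes were 1.36% and 1.4% against DC1 and 8.27% and 9.53% against DC0. Nrp2, a receptor for semaphorins and VEGF, had 692, 1041 and 1490.3 CPM in DC2, 506, 823 and 1289 CPM in DC1, 84.2, 271 and 559 CPM in DC0 and 52.7, 68.7 and 82.4 CPM in Fb. Its change was 1.79 (SE 0.240, adjusted p = 2.22e-06) against DC0 and 3.83 (SE 0.238, adjusted p = 2.37e-14) against Fb. Nrp1, its relative, went the other way against Fb, at 88.2, 188 and 396 CPM in DC2 and 604, 634 and 698 CPM in Fb, a change of -1.49 (SE 0.277, adjusted p = 5.40e-05).

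Of 11 tested chemokine, nerve and pigment cell signals, none was called against DC1, near the overall shares of 1.36% and 1.4%, and 5 rose and 4 fell against Fb, against 21.5% and 23.4% of all genes. Edn3, the endothelin that acts on melanoblasts, had 62.5, 355.99 and 646 CPM in DC2 and 18.9, 31.7 and 38.4 CPM in Fb, a change of 3.75 (SE 0.399, adjusted p = 3.75e-09). The neurotrophin Ntf3 had 65.7, 125 and 314.1 CPM in DC2 and 8.95, 10.7 and 11.8 CPM in Fb, a change of 3.59 (SE 0.395, adjusted p = 7.26e-09). Igf1 and Igf2, the insulin-like growth factors, moved in opposite directions against Fb. Igf1 had 187, 900.4 and 1017 CPM in DC2 and 95.7, 161.3 and 203.99 CPM in Fb, a change of 2.20 (SE 0.354, adjusted p = 6.87e-06), and Igf2 had 151, 416 and 937 CPM in DC2 and 3525, 4568 and 5815 CPM in Fb, a change of -3.63 (SE 0.221, adjusted p = 1.66e-14). Kitl, the ligand of the receptor Kit, fell by 2.49 on the log2 scale against Fb.

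In the handling of retinoic acid, 4 genes were tested. The shares of all genes that were higher and lower were 1.36% and 1.4% against DC1 and 8.27% and 9.53% against DC0. Against Fb they were 21.5% and 23.4%. Crabp1 and Cyp26b1 fell against DC1 and DC0, and Rara, a nuclear receptor, rose against DC0 (1.02, SE 0.297, adjusted p = 0.014), a call that ended without library 3 (adjusted p = 0.1). Against Fb, Crabp1 fell by 2.75 on the log2 scale while Cyp26b1 (1.83, SE 0.271, adjusted p = 1.80e-06), Rara and Rarg rose.

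The transcription factors known from the condensate were higher in DC2 than in fibroblasts. Of 17 tested, 13 rose against Fb with none falling, where 21.5% of all genes were higher and 23.4% lower. Against DC0, 4 rose and 2 fell, where 8.27% and 9.53% of all genes did. None was called against DC1, near the overall shares of 1.36% and 1.4%. The calls against DC0 ended for Sox11 without library 3, 7 or 8, for Prdm1 without 5, 7 or 8 and for Snai1 without 3, 5, 7 or 8. Sox2 had 0, 142 and 355.99 CPM in DC2, 12.9, 106.5 and 198.7 CPM in DC1, 0, 133.1 and 328 CPM in DC0 and 0.263, 0.663 and 2.45 CPM in Fb. Its 3 condensate ranges overlapped, and the change was 7.16 (SE 0.551, adjusted p = 2.77e-12) against Fb and 0.99 (SE 0.549, adjusted p = 0.367) against DC1. Foxd1, a forkhead factor, had 231, 416 and 437 CPM in DC2 and 2.73, 7.19 and 13.7 CPM in Fb, a change of 5.29 (SE 0.283, adjusted p = 9.87e-16), and Prdm1, a repressor also called Blimp1, had 281.8, 437 and 745 CPM in DC2 and 8.38, 11.8 and 16.2 CPM in Fb, a change of 5.33 (SE 0.339, adjusted p = 3.53e-14). Ebf1 rose and Tbx18 fell against DC0. Ebf1 had 125, 219.1 and 466 CPM in DC2 and 0, 26.9 and 131 CPM in DC0 (2.35, SE 0.414, adjusted p = 1.21e-04), and Tbx18 had 0, 128 and 249.95 CPM in DC2 and 185, 609 and 1094 CPM in DC0 (-1.70, SE 0.337, adjusted p = 5.17e-04).

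Of 17 tested genes induced by tissue dissociation, 0 were called between DC2 and DC1, near the shares of 1.36% and 1.4% over all genes. Against Fb, 10 fell and 1 rose, where 23.4% and 21.5% of all genes did, with a median of -0.70, and Fos had 279.4, 427 and 819.7 CPM in DC2 and 945, 1039 and 1435 CPM in Fb, a change of -1.46 (SE 0.264, adjusted p = 3.65e-05). Klf4, which is also a regulator of cell differentiation, was the 1 that rose, at 1.60 (SE 0.232, adjusted p = 1.26e-06) against Fb. Of 9 tested glycolysis and hypoxia genes, none was called against DC1, again near those shares. Against DC0 4 fell and against Fb 5, where 9.53% and 23.4% of all genes were lower. Ldha, lactate dehydrogenase, was at -1.38 (SE 0.237, adjusted p = 1.74e-05) against Fb. Each of the 4 calls against DC0 ended with a library left out: Tpi1 without 3, 4, 7 or 8, Pgam1 without 3, 4, 5, 7 or 8, Pgk1 without 5 and Ldha without 3. The 10 genes tested of adhesion and cytoskeleton gave Tspan7 as the only call against DC1.

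The RNA recovered per well, measured as UMIs of genes per UMI of the added spike-in RNA, was 35.8 ± 20.4 in DC2 and 64.1 ± 23.5 in Fb (SD, n = 6 libraries). On the log2 scale the mean difference was -0.97, with DC2 lower in 6 of 6 libraries and p = 0.03125 in the exact two-sided sign-flip permutation test, the smallest it can give. Against DC1 the mean difference was -0.65 (35.8 ± 20.4 in DC2 and 52.7 ± 23.1 in DC1, lower in 5 of 6, exact p = 0.156) and against DC0 -0.51 (39.9 ± 21.5 in DC2 and 54.99 ± 27.0 in DC0, lower in 5 of 7, exact p = 0.141). In wells of at least 3000 UMIs the difference from Fb was -0.62 (exact p = 0.0625). CPM are shares of a population's UMIs, and the fold changes given above were not rescaled by the spike-in RNA.

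The genes with the highest CPM in DC2, ribosomal protein and mitochondrial genes left out, were Rn45s, Col3a1, Malat1, Kcnq1ot1, Tpt1, Eef1a1, Gnas, Col6a2, Lgals1, Col1a2, Vim, Col6a3, Actg1, Actb and 6820431F20Rik. Rn45s, a row of ribosomal RNA, had 4595, 23939 and 29713 CPM, with library 8 the lowest. The nuclear RNA Malat1 had 1687, 4378 and 9392 CPM in DC2 and 979, 1531 and 2049.6 CPM in Fb, a change of 1.66 (SE 0.304, adjusted p = 4.35e-05). Col3a1 had 3626, 6434 and 10373 CPM in DC2 and 14639.6, 15025 and 19935 CPM in Fb. By mean CPM over the DC2 libraries it led the protein-coding genes of this ranking, from which mitochondrial genes were left out. Against Fb it fell by 1.47 on the log2 scale. Vim and Actb, cytoskeletal genes, showed no call in any of the 3 comparisons.

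Wells of library 8 offered the closest look at the spread between DC2 cells. Over 65 of them thinned to 3000 UMIs, the median ratio of variance to mean was 1.26 for the 1046 genes with a mean of at least 0.5 UMIs, near the value of 1 that counting alone gives. The 10 highest ratios belonged to Kcnq1ot1 (95.3), Gm17821 (57.7), Rn45s (39.9), A630089N07Rik (25.7), Grk4 (20.3), Cdkn1c (20.1), A130077B15Rik (14.9), Vmn2r55 (14.9), Ibsp (14.4) and mt-Rnr2 (10.2). Kcnq1ot1 is the long non-coding RNA of the imprinted domain that also holds Cdkn1c. Its UMIs per well ranged from 0 to 330 with a median of 9 in DC2, against a median of 6.5 and a highest value of 83 in the DC0 wells of the same plate.

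A single well set much of that spread. In it the 6 genes Kcnq1ot1, Gm17821, A630089N07Rik, Grk4, A130077B15Rik and Vmn2r55 together took 744 of 3000 UMIs (24.8%), against a median of 0.633% over the 65 wells and a next highest of 7.97%. That well had 4225 UMIs before thinning and 4 of the 6 markers. Without it the ratio of Kcnq1ot1 was 26.3 and Rn45s led the order. With wells thinned to 2000 UMIs instead, which let in shallower wells (69 of DC2 and 100 of DC0), the ratio was 189.1 in DC2 and 231 in DC0, where 1 well reached 369 UMIs of Kcnq1ot1, so such wells occur in both populations. Over the 65 DC2 wells, Kcnq1ot1 and Gm17821 had a Spearman correlation of 0.844, and Kcnq1ot1 and Cdkn1c one of 0.227. These points share plate and depth, and no test was made.

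Cdkn1c was uneven in another manner. Its median was 1 UMI in DC2 wells of library 8, 23 of the 65 wells had none and 10 had at least 10, up to 51, and the top 6 wells held 57.8% of its UMIs. In DC0 wells of the plate the median was 2, and the top 9 of 94 wells held 43.6%. Ibsp, a bone matrix sialoprotein, was found in 6 of 65 DC2 wells, with 21 UMIs in 1 of them. Stmn2 had a UMI in 36 of 65 DC2 wells and up to 15, against 20 of 94 DC0 wells and up to 6, and as a gene it rose against DC1, at 1.95 (SE 0.483, adjusted p = 0.0238), a call that ended without library 3, 4 or 5 (adjusted p = 0.0625 to 0.205). Dlk1, an imprinted inhibitor of differentiation, had a median of 7 UMIs in DC2 wells, with 2 wells at 0, against a median of 2 in DC0 wells, with 21 at 0. Twist2 and Crabp1 each had a median of 1 UMI per DC2 well, against 7 and 10.5 per DC0 well.

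**Figure D5:**
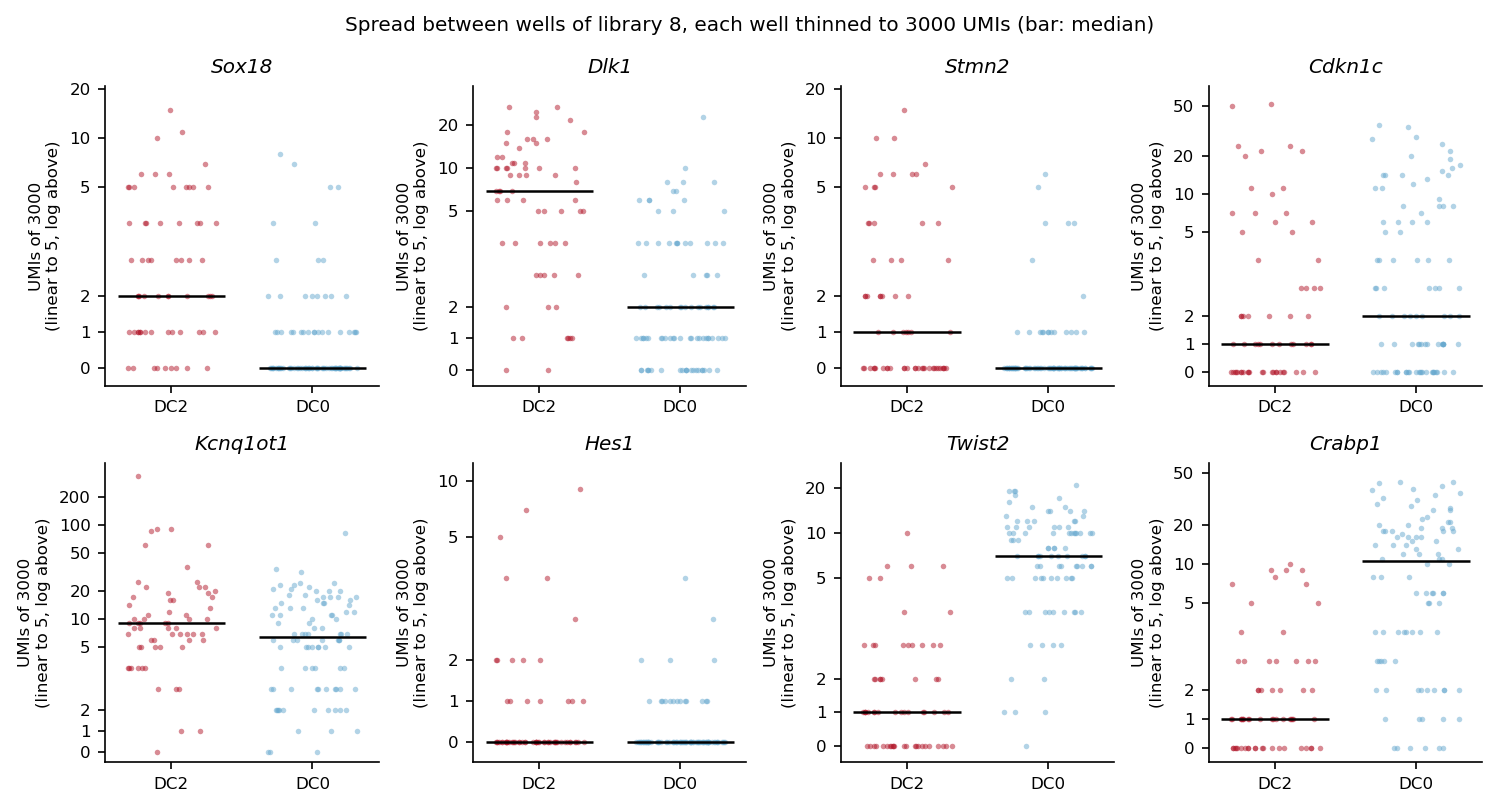
UMIs of 8 genes in each well of library 8 thinned to 3000 UMIs (linear to 5 and logarithmic above), DC2 (65 wells) left of DC0 (94 wells), with bars at the medians. Medians of Dlk1 are 7 in DC2 and 2 in DC0, those of Crabp1 1 and 10.5, and 1 DC2 well reaches 330 UMIs of Kcnq1ot1.

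Library 8, which holds most of the members, was compared with the small sums of the other libraries. Of the genes called higher in DC2 than in DC0 from libraries 1 to 7 alone, all but 1 were higher in DC2 of library 8 (99.1%), and of the 103 called lower, 100 were lower there (97.1%), where 51.3% of all 2017 genes tested were higher. If the same procedure named the wells of all libraries, this agreement was in part set in advance. The DC2 sum of library 8 lay above all 6 other DC2 sums for 111 of 2140 genes (5.2%) and below them for 66 (3.1%). Library 8 has no DC1 or Fb wells, so that in the other comparisons it enters through the shared model only.

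The 42 DC2 wells of library 8 that were left out for depth held 22013 UMIs together, of which 4 were of Sox18, 7 of Cxcr4, 1 of Inhba, 3 of Heyl, 1 of Hey1 and 3 of Tspan7, few enough that 3 UMIs amount to 136 CPM. Sox18 thus stood at 182 CPM in them, against 1042 CPM in the kept DC2 wells of that plate. Twist2 and Crabp1, low in kept DC2 wells at 542 and 632 CPM, stood at 1454 and 1726 CPM in the dropped wells, from 32 and 38 UMIs, against 2611 and 4064 CPM in the DC0 wells of the plate. The 16 wells named for spike-ins on this plate had 4070 UMIs of genes, with 0 of Sox18, 1 of Cxcr4, 2 of Twist2 and 6 of Crabp1. Whether RNA from neighbouring wells or mixed cells fills the shallow wells was not tested.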

How the data were processed

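The authors deposited 1 table of expected counts, per the file's values: UMIs of 20284 gene rows and 86 spike-in rows in 1967 wells, corrected for UMI collisions, since 0 of 7480233 values above 0 departed by more than 0.005 from the correction for 4096 possible UMIs. Rounding to whole UMIs before the tests altered 13.5% of the values above 0. Counts had been assumed when the tests were laid out. The submitters' processing notes name mm10, BWA 0.6.2-r126, TopHat2 2.0.3, Bowtie2 and Cufflinks 2.1.1, with no role for each.

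Wells under 1000 UMIs were dropped and UMIs summed per library and population, with at least 2 wells per sum. The populations were compared with edgeR 4.0.16 (limma 3.58.1, R 4.3.3) by the quasi-likelihood test, after filterByExpr and TMM scaling, adding a term for each library, and p-values were adjusted by the Benjamini-Hochberg method. DESeq2 1.42.0 was an alternative. Sums of UMIs outside the model were compared by exact sign-flip permutation over libraries. Thinning drew UMIs without replacement with seed 11. Scripts ran in Python 3.11.15 (scipy 1.17.1, numpy 2.4.6, pandas 2.3.3, matplotlib 3.10.9) and were tested on simulated data.

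Genes were named by rule: the given markers and, per comparison, the 8 called genes with the largest rise and the 8 with the largest fall, of at least 1 on the log2 scale, an average of at least 5 on the log2 CPM scale and the same direction in every library with both sums. The 15 genes of highest CPM, the 10 most variable between wells and list members that were called or averaged at least 50 CPM in DC2 were added. The members and lists were chosen with earlier results of these data known. All 1967 well columns were mapped to a library, and 12 bulk samples were not analysed here. UMI intervals cover counting error only.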

Additional observations from a re-analysis of the deposited data

Results flagged for a closer look

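The level of each of 60 genes named in the text was checked over the 7 DC2 libraries for a library far from the others, a check that by chance picks about 1 in 20 groups. It picked 7 genes. Atf3 had 562.4 CPM in library 2, the highest, against at most 41.9 CPM in the others. Cxcl12 and Islr each had 93.1 CPM in library 6, where 1 UMI is worth that much, and Aspn had 186.3 CPM there. Lox had 125.0 CPM in library 2, from 2 UMIs. Rn45s, the row of ribosomal RNA, had 4594.7 CPM in library 8, the lowest, and Col6a3 had 1956.0 CPM in library 6, the lowest. Of these libraries, 2 and 6 hold 3 and 2 DC2 wells, while library 8 is the plate with 80.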

How the results depend on the processing

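Most DC2 sums hold few wells, so a UMI more or less in libraries 2 and 6 moves a gene by 62.5 or 93.1 CPM, and the depth of library 8 is not matched by any other. Pairs of values below are the percent of genes tested that were higher and lower in DC2, with 1.36 and 1.4 against DC1, 8.27 and 9.53 against DC0 and 21.5 and 23.4 against Fb as reported. Without a filter on low counts (18745 genes) they were 0.235 and 0.432 against DC1, 2.11 and 1.84 against DC0, and 3.79 and 11.3 against Fb. With at least 5 wells per sum (11372 genes, library 8 then being one of few DC2 sums) they were 0.044 and 0.176, 3.42 and 4.12, and 5.65 and 11.2. No library in that fit held both a DC2 and a DC1 sum, so the change against DC1 came only through the shared model. Thinning all wells to 3000 UMIs left 292 genes, with 2.05% higher against DC1 and 15.8% against DC0. DESeq2 called 2.24% higher against DC1 and RLE scaling 0.888% lower. Libraries 3, 5, 6 and 7, which share a run, gave 0.434 and 0.197 against DC1 and 3.35 and 2.56 against DC0. The other libraries gave 0 and 0 against DC1 by edgeR, with 108 of 1260 genes at an unadjusted p under 0.05, 4.29 and 1.83 against DC0, and 12.2 and 12.1 against Fb. Among them only libraries 2 and 4 held a DC2 sum beside a DC1 or Fb sum. Libraries 1 to 7 gave 0.645% lower against DC1 and 5.11% against DC0. Leaving out 1 library at a time gave 0.509 to 1.26 higher and 0.4665 to 1.32 lower against DC1, and 5.11 to 9.54 lower against DC0. The other counts stayed within 1.5 times.

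Without the replicate block, that is the library as a term, 1.92 and 1.31 were called against DC1, 9.07 and 8.97 against DC0 and 23.97 and 23.8 against Fb. Deviations of sums of the same library correlated at -0.0301 to 0.345, not above 0.1 in every pair.

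A few named genes turned. Islr against DC0 was at 0.0634 within the shared run and at 0.154 without library 8, with -3.29 as the lowest value when another library was left out. Thbs2 against DC0 was at 0.803 within the shared run and 0.913 without library 8, with -3.03 as the lowest value when another library was left out. Tpt1 against DC0 was at 0.0591 after thinning, and Col6a1 and Col6a2 against Fb at -0.0837 and -0.00198 with no filter. Sox2 against DC1 was at -0.754 with at least 5 wells per sum, where no library held sums of both populations. The cause was not tested.

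UMIs per spike-in UMI against Fb differed by -0.617 on the log2 scale in wells of at least 3000 UMIs (exact p = 0.0625) and by -1.10 to -0.681 with 1 library left out, where 0.0625 is the smallest p the exact test can give. With the median of wells in place of the sum, the difference from DC0 was -0.4495 (exact p = 0.03125). That of the G2 and mitosis level from Fb was -878 CPM (exact p = 0.03125). The limit of 5 UMIs of G2 and mitosis genes, chosen after seeing the data, put 20.7% of thinned DC2 wells above it, against 3.45% at 10, and the limit of 20 put 2.3% there.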
